A study of Xenopus tropicalis x Xenopus laevis and Xenopus laevis and Xenopus tropicalis with 8 samples.

Results

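Transcripts of *klf17* and of the other Krüppel-like factors were followed in embryos of *X. laevis*, *X. tropicalis* and their 2 hybrids at the start of zygotic transcription. Members were all transcripts of the deposited table whose gene symbol is klf followed by a number, in either species. The rule found 43 of 34647 transcripts, of which 29 were *X. laevis* transcripts of 13 symbols and 14 were *X. tropicalis* transcripts of 14 symbols. Of these, 3 were *klf17* transcripts, 2 from *X. laevis* and 1 from *X. tropicalis*.

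Krüppel-like factors are transcription factors that bind GC-rich and CACCC-box DNA through zinc fingers at the end of the protein, and their other domains recruit activators or repressors. Members of the family act in blood formation, in epithelia and in pluripotent cells of vertebrates. In *Xenopus*, *klf17* is also known as *neptune*, a ventral factor of early blood formation that is transcribed from the embryo's own genome. RNA of some other members is stored in the egg, which does not exclude that the embryo transcribes them too.

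Polyadenylated RNA of whole embryos was sequenced at stage 9, 9 h post-fertilization. The groups were wild-type *X. laevis* embryos, wild-type *X. tropicalis* embryos, le × ts hybrids (*X. laevis* mother, *X. tropicalis* father), and te × ls hybrids (*X. tropicalis* mother, *X. laevis* father). The le × ts hybrid is viable, while te × ls embryos die as late blastulae. Each group has 2 libraries, numbered 1 and 3, and no transgene, knockdown or drug treatment was used. Each hybrid receives a haploid genome from either species at fertilization. The paper's PCR found the genomes of both in le × ts tadpoles, and it gives no such check for te × ls. *X. laevis* is allotetraploid, so that several of its genes have a pair of similar copies, which the table does not label by subgenome. Abundance is given as TPM, the share of a transcript in its library after allowance for its length. Reads were kept only where they matched a single transcript of the combined *X. laevis* and *X. tropicalis* database without mismatch, so that each TPM is assigned to 1 species. Some transcripts still had values in embryos of the other species, which serve as background: 28 of 29 *X. laevis* klf transcripts were under 1 TPM in both *X. tropicalis* libraries, and 12 of 14 *X. tropicalis* ones in both *X. laevis* libraries. Where nothing else is stated, n = 2 libraries and errors are SD. The series text speaks of 3 biological replicates without saying whether they came from separate clutches, and the labels and the table used here hold 2 libraries per group, so p-values measure only the spread between these libraries.

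The libraries differed in depth and in the level of early zygotic genes. TPM keeps no read totals, but at very low TPM the commonest ratio between libraries gives their relative number of reads. By this estimate le × ts library 3 had 0.439 times the reads of *X. laevis* library 1, *X. tropicalis* library 3 had 0.323 times those of *X. tropicalis* library 1, and the other libraries had 0.974 to 1.52 times those of library 1 of their egg's species. All 8 egg-supplied genes examined (such as *vegt* and *zar1*) were at 1 TPM or more in every library. Early zygotic genes of the egg's species (*sia2*, *nodal6*, *not*, *hes7* and others) summed to 537 and 478 TPM in *X. laevis*, 289 and 223 TPM in le × ts, 582 and 819 TPM in te × ls, and 861 and 1360 TPM in *X. tropicalis*. Of the 10 genes, 8 were listed in *X. laevis* and 10 in *X. tropicalis*. A single *X. tropicalis* *hes7* transcript held 451 and 501 TPM of the te × ls sums and 501 and 591 TPM of the *X. tropicalis* sums. The sums are thus read only between groups of the same egg species. Of the blood markers *hba1*, *hbg1*, *hbd* and *alas2*, only *hbd* of *X. tropicalis* was listed, at under 1 TPM in every library. Muscle markers of the egg's species summed to 5.73 to 32.6 TPM in groups with *X. laevis* eggs and to 99.7 to 152 TPM in the others. Nearly all of the latter sums was 1 transcript of *X. tropicalis* *tnnt2*, at 97.8 and 103 TPM in te × ls and at 118 and 146 TPM in *X. tropicalis*. The same transcript was listed at 108 and 103 TPM in *X. laevis* embryos, where it is background. The muscle sums are thus not read between egg species. In le × ts this *tnnt2* transcript was at 107 and 754 TPM. The liver marker *apoa1* of *X. laevis* was at 4.85 to 6.25 TPM in groups with *X. laevis* eggs. Neural and epidermal markers summed to 4.68 TPM or less.

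The *X. tropicalis* *klf17* transcript (Tan201204_XENTRc1st11b_000019039) was abundant in *X. tropicalis* embryos and in both hybrids, and close to 0 in *X. laevis*. It reached 149 and 265 TPM in libraries 1 and 3 of *X. tropicalis*, a mean of 207 ± 82.1 TPM. In te × ls, where the egg brings this copy, it was at 68.9 and 138 TPM, a mean of 104 ± 49.1 TPM. In le × ts, where it comes with the sperm, it was at 83.7 and 33.6 TPM, a mean of 58.7 ± 35.4 TPM. In *X. laevis* embryos it was listed at 0.096 and 0.085 TPM, the background for its values in le × ts. Both le × ts libraries therefore lay above both *X. laevis* libraries, while those of le × ts and te × ls overlapped.

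The study listed *klf17* from the contrast of le × ts with *X. laevis*, so the difference of its *X. tropicalis* transcript there is a description with no test. On the log2(TPM + 1) scale, on which all differences here are given and which understates changes of low transcripts, le × ts exceeded *X. laevis* by 5.63. Within the le × ts libraries this transcript ranked 5 of 6236 and 15 of 4545 among the *X. tropicalis* transcripts above 0. In *X. tropicalis* embryos it ranked 1795 and 732, among the 13873 and 13266 *X. tropicalis* transcripts above 0.

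**Figure D1:**
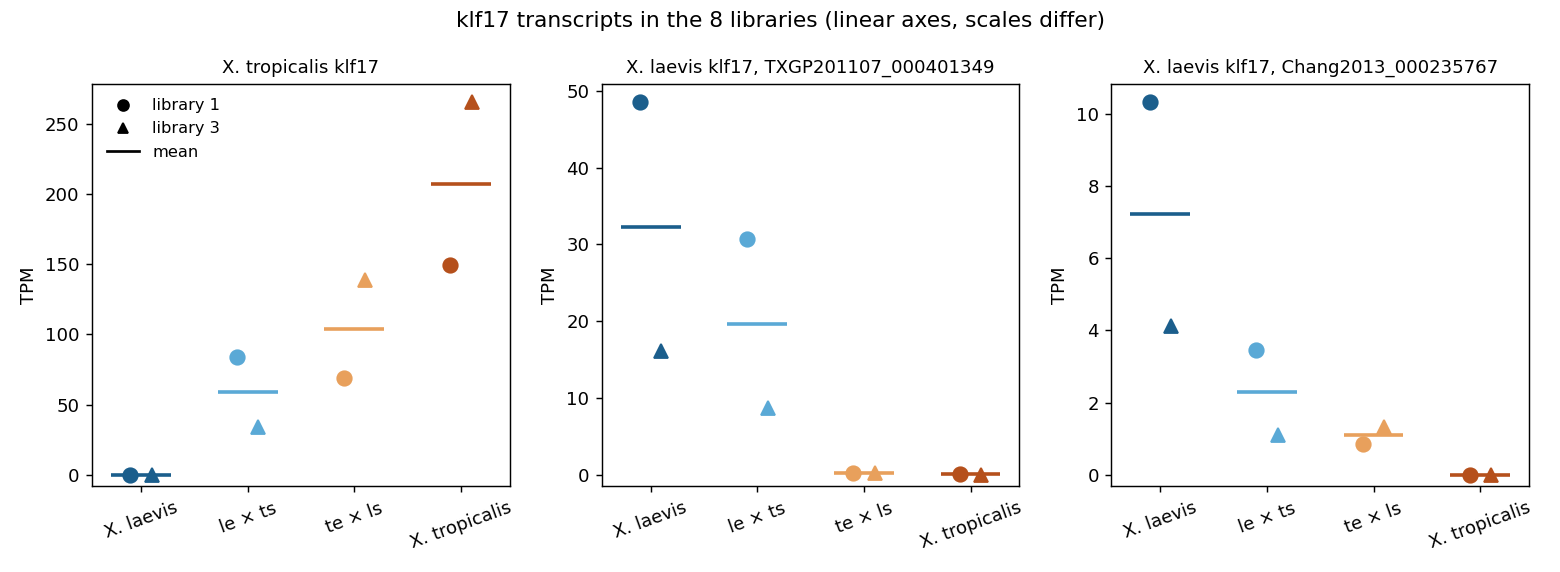
TPM of the 3 *klf17* transcripts (vertical axes, linear, each with its own scale) in the 4 groups of embryos (horizontal axis), with circles for library 1, triangles for library 3 and a line at the mean. The *X. tropicalis* transcript is near 0 only in *X. laevis* and reaches 83.7 TPM in le × ts, while the *X. laevis* transcripts stay at or under 1.31 TPM in te × ls.

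The reciprocal cross receives *X. laevis* *klf17* with the sperm, and its libraries were not used to choose the gene. The *X. laevis* transcript Chang2013_000235767 was at 0.866 and 1.31 TPM in te × ls and listed at 0 in both *X. tropicalis* libraries. In *X. laevis* it was at 10.3 and 4.14 TPM, and in le × ts at 3.46 and 1.11 TPM. The *X. laevis* transcript TXGP201107_000401349 was the more abundant of the pair in *X. laevis*, at 48.5 and 16.1 TPM, and in le × ts, at 30.7 and 8.71 TPM. In te × ls it was at only 0.161 and 0.164 TPM, against 0.062 and 0 TPM in *X. tropicalis*. The *X. laevis* transcript that was the lower of the pair in *X. laevis* embryos was thus the higher of the pair in te × ls.

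The share of the Chang transcript in the summed *X. laevis* *klf17* also differed between the groups. It was 17.6% and 20.5% in *X. laevis*, 10.1% and 11.3% in le × ts, and 84.3% and 88.9% in te × ls. The te × ls shares are of sums of only 1.03 and 1.48 TPM, so they rest on few reads. The groups did not overlap in this share, but exact permutation of 2 against 2 libraries cannot give a two-sided p below 0.333. Neither transcript reached 1 TPM in both te × ls libraries, so they did not pass the filter of the test across transcripts and have values only. Their differences from *X. tropicalis* were 1.05 for the Chang transcript and 0.17 for the TXGP transcript. Any reads that match both *X. laevis* transcripts were discarded, so the split between them rests on the bases in which they differ. How similar the transcripts are, and whether they are a pair of subgenome copies, was not examined.

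Egg-species *klf17* was lower in both hybrids in the means, and no difference passed the test, which did not pair libraries of equal number. With equal numbers as a block, which was not used for the report, *X. tropicalis* *klf17* in te × ls was called. The *X. laevis* *klf17* transcripts in le × ts were not called with the block. Calls used limma on log2(TPM + 1) for transcripts that reached 1 TPM in 2 or more libraries of the comparison, an adjusted p (Benjamini-Hochberg over both species) under 0.05 and an absolute difference above 1. In te × ls against *X. tropicalis*, *X. tropicalis* *klf17* had a difference of -1.02 (SE 0.452, unadjusted p = 0.0831, adjusted p = 1 in limma), and both te × ls libraries were below both *X. tropicalis* libraries. This shrank to -0.52 without te × ls library 1 and to -0.61 without *X. tropicalis* library 3. It grew when either of the other libraries was left out. In le × ts against *X. laevis*, the Chang transcript had a difference of -1.31 (SE 0.608, unadjusted p = 0.0823, adjusted p = 1 in limma), again without overlap of the groups. This difference shrank to -0.74 without *X. laevis* library 1 and to -0.78 without le × ts library 3, and grew without either of the other libraries. The TXGP transcript had a difference of -0.73 (SE 0.77, adjusted p = 1 in limma), with overlapping groups. Its sign turned without *X. laevis* library 1 (0.04) or without le × ts library 3 (0.12), where the library numbers differ between the groups. Between libraries of equal number it was lower in le × ts, at 30.7 against 48.5 TPM and at 8.71 against 16.1 TPM. The Chang transcript and *X. tropicalis* *klf17* in te × ls were also lower in the hybrid at each number. The labels do not say that equal numbers mark a pair. Still, deviations of equal-numbered libraries from their group means correlated across transcripts, at 0.764 in the le × ts comparison and 0.842 in the te × ls one. The unblocked test counts such shared spread as error. A lower level in whole embryos does not tell fewer cells with the transcript from less of it per cell. Each hybrid also carries fewer chromosome sets of the egg's species than its control. This comes with the cross, so its part in the lower values cannot be told apart and was not tested. The summed early zygotic genes of the egg's species were lower in the same hybrid libraries, and their part in the *klf17* values was not tested.

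The libraries of a group differed widely in *klf17*. For the Chang and TXGP transcripts, library 1 held 2.50 and 3.02 times the TPM of library 3 in *X. laevis*, and 3.12 and 3.52 times in le × ts. For the *X. tropicalis* transcript, library 1 held 2.49 times the TPM of library 3 in le × ts, but 0.498 times in te × ls and 0.562 times in *X. tropicalis*. Over the 19 other *X. laevis* klf transcripts that reached 5 TPM in any library, this ratio had a median of 0.993 in *X. laevis*, from 0.67 (*klf10*) to 4.30 (*klf15*), and a median of 0.910 in le × ts, from 0.456 (*klf5*) to 5.90 (*klf15*). In each of these groups 16 of the 19 had libraries within 2-fold of each other. Over 8 other *X. tropicalis* klf transcripts it ran from 0.528 to 2.57 in te × ls, with 7 of 8 within 2-fold, and from 0.471 to 2.35 in *X. tropicalis*, with 6 of 8 within 2-fold. All 3 *klf17* transcripts were thus higher in library 1 of the groups with *X. laevis* eggs, and the *X. tropicalis* one was lower in library 1 of the groups with *X. tropicalis* eggs.

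Summed over both species, *klf17* amounted to 58.9 and 20.3 TPM in *X. laevis*, 118 and 43.5 TPM in le × ts, 69.9 and 140 TPM in te × ls, and 149 and 265 TPM in *X. tropicalis*. The le × ts values overlapped those of *X. laevis*, and te × ls lay below *X. tropicalis*. In le × ts, the *X. tropicalis* copy made up 71.0% and 77.4% of this sum. In te × ls, the *X. laevis* copies made up 1.47% and 1.06%. The paternal copy was thus the larger part of this *klf17* TPM in le × ts and a small part in te × ls. In te × ls the level of the maternal copy was also higher. Any reads matching both *X. laevis* transcripts were discarded, which can lower the *X. laevis* values, and the size of this effect is unknown.

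By TPM of uniquely matched reads, *klf17* was a minor member of the family in *X. laevis* embryos and a major one in *X. tropicalis* embryos. Reads shared by *X. laevis* copies of a gene were discarded, so these shares are not strictly comparable between the species. It took 4.22% and 1.71% of all klf TPM in *X. laevis*, 8.28% and 2.76% in le × ts, 7.87% and 14.6% in te × ls, and 15.7% and 24.4% in *X. tropicalis*. Among the 13 symbols of *X. laevis* it ranked 7 and 10 in *X. laevis* embryos, and among the 14 of *X. tropicalis* it ranked 3 and 2 in *X. tropicalis* embryos. The most abundant member in all 8 libraries was *klf2*, a factor of endothelial and resting T cells in mammals, at 319 to 531 TPM when summed over the transcripts of the egg's species. The egg species' *klf8*, of a repressor that binds CtBP, was at 182 to 261 TPM. *klf5*, which mouse embryos need at the blastocyst stage, was at 181 to 333 TPM in groups with *X. laevis* eggs and at 13.1 to 27.2 TPM in the others.

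**Figure D2:**
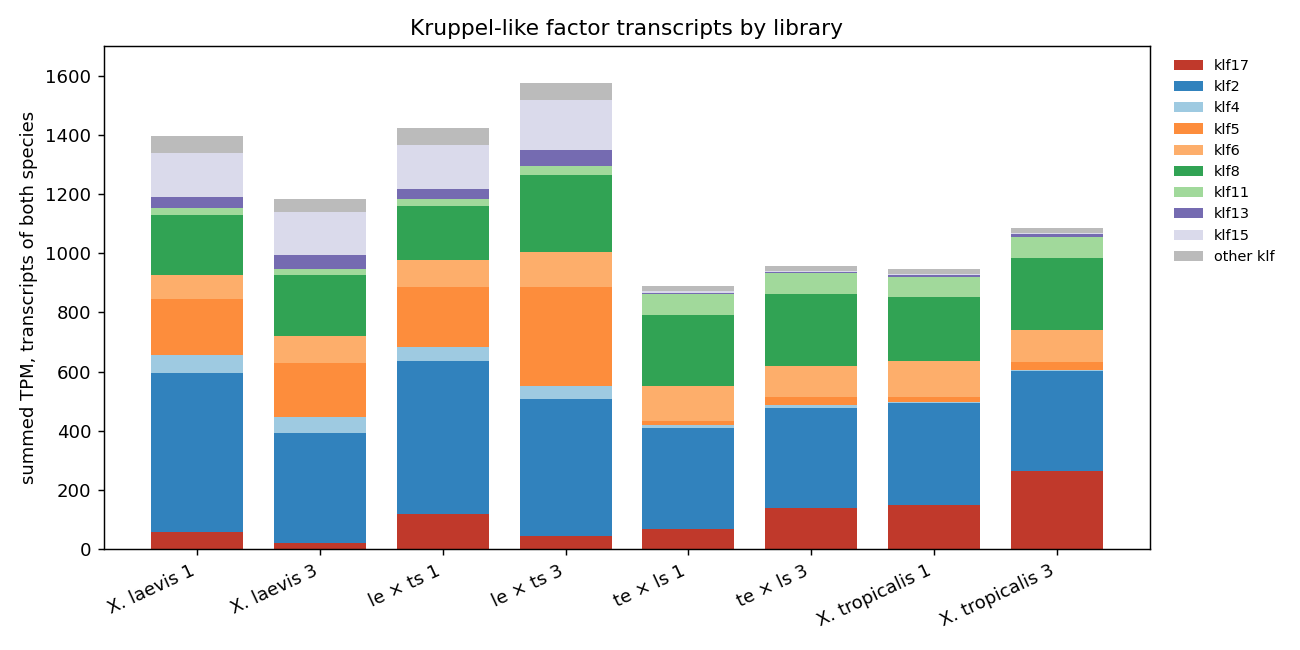
Summed TPM of Krüppel-like factor transcripts of both species (vertical axis) in each of the 8 libraries (horizontal axis), stacked by symbol with *klf17* in red at the base. The *klf17* part grows from 20.3 TPM in *X. laevis* library 3 to 265 TPM in *X. tropicalis* library 3, while *klf2* is the largest part in every library.

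Paternal transcripts of the other Krüppel-like factors were then examined in both hybrids. In le × ts, 3 of the 14 *X. tropicalis* klf transcripts (*klf17*, *klf11* and *klf13*) were higher in both hybrid libraries than in both *X. laevis* libraries, against 11.5% of all *X. tropicalis* transcripts listed. At 1 TPM or more in both le × ts libraries and under 1 TPM in both *X. laevis* libraries stood 1 of the 14, *klf17*, against 1.28% of all *X. tropicalis* transcripts. Since *klf17* was listed from this contrast, these counts support nothing about it. In te × ls, 14 of the 29 *X. laevis* klf transcripts were higher in both hybrid libraries than in both *X. tropicalis* libraries, against 20.1% of all *X. laevis* transcripts. By the same 1 TPM rule, 3 of the 29, both *klf2* transcripts and 1 of *klf4*, were detected in te × ls, against 1.94%. The shares of all transcripts include many that are low in embryos of their own species.

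The paternal *X. laevis* transcripts of *klf4*, which in mammals acts in reprogramming and in epithelial barriers, and of *klf2* were the highest in te × ls. The *klf4* transcript TXGP201107_000407505 was at 6.47 and 6.59 TPM in te × ls and listed at 0 in both *X. tropicalis* libraries. In *X. laevis* it was at 34.1 and 21.0 TPM, and in le × ts at 15.2 and 6.44 TPM. A second *klf4* transcript, TXGP201107_000147895, was similarly abundant in *X. laevis*, at 28.9 and 31.4 TPM, and in le × ts, at 31.8 and 33.1 TPM. In te × ls this one was at 0.242 and 0.11 TPM, and 0 in *X. tropicalis*. As with *klf17*, the *X. laevis* transcripts of *klf4* thus differed widely in te × ls.

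The *klf2* transcript Quigley201307_000181167 was at 8.90 and 11.8 TPM in te × ls and listed at 0 in *X. tropicalis*. It was at 89.3 and 58.5 TPM in *X. laevis* and at 87.6 and 92.8 TPM in le × ts. The more abundant *klf2* transcript JGIv14_28704593 was at 441 and 313 TPM in *X. laevis* and at 415 and 369 TPM in le × ts. In te × ls it was at 5.86 and 5.29 TPM, against 0.403 and 0 TPM in *X. tropicalis*. Here the *X. laevis* transcript that was lower in *X. laevis* was again the higher in te × ls.

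On the log2(TPM + 1) scale the *klf4* transcript exceeded *X. tropicalis* by 2.91, the Quigley *klf2* transcript by 3.49 and the JGIv14 *klf2* transcript by 2.47, each in 2 of 2 te × ls libraries. These 3 transcripts passed the filter of the test only through te × ls, so the differences are a description and no p is given. Among the tested *X. laevis* transcripts of this comparison, 80.5% had both te × ls libraries above both *X. tropicalis* libraries. Over all 12073 transcripts tested, limma called 0 (0%), the lowest adjusted p was 0.0609, and 565 (4.68%) had an unadjusted p under 0.05.

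The level of the sperm's copies was also set against embryos of the sperm's own species, as a description, since TPM shares are taken of different RNA pools. *X. tropicalis* *klf17* stood at 40.4% and 16.2% of its *X. tropicalis* mean in the le × ts libraries, 28.3 ± 17.1% on average. Only 63 (0.651%) of the 9684 *X. tropicalis* transcripts with a mean of 5 TPM or more in *X. tropicalis* had a higher percentage, and the median of the 9684 was 0.108%. Since the study listed *klf17* from these le × ts libraries, its place supports nothing about it. In te × ls, *X. laevis* *klf4* TXGP201107_000407505 stood at 23.7 ± 0.298% of its *X. laevis* mean, the Chang *klf17* transcript at 15.1 ± 4.37% and the Quigley *klf2* transcript at 14.0 ± 2.79%. Of the 13809 *X. laevis* transcripts at 5 TPM or more in *X. laevis*, 93 (0.674%), 129 (0.934%) and 135 (0.978%) had higher percentages than these, with a median of 0.0463%. They were named as the highest klf percentages among these transcripts, so their places are a description too. The TXGP *klf17* transcript stood at 0.503 ± 0.00657%. The Chang percentage depended on the *X. laevis* libraries and was 26.3% without library 1.

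**Figure D3:**
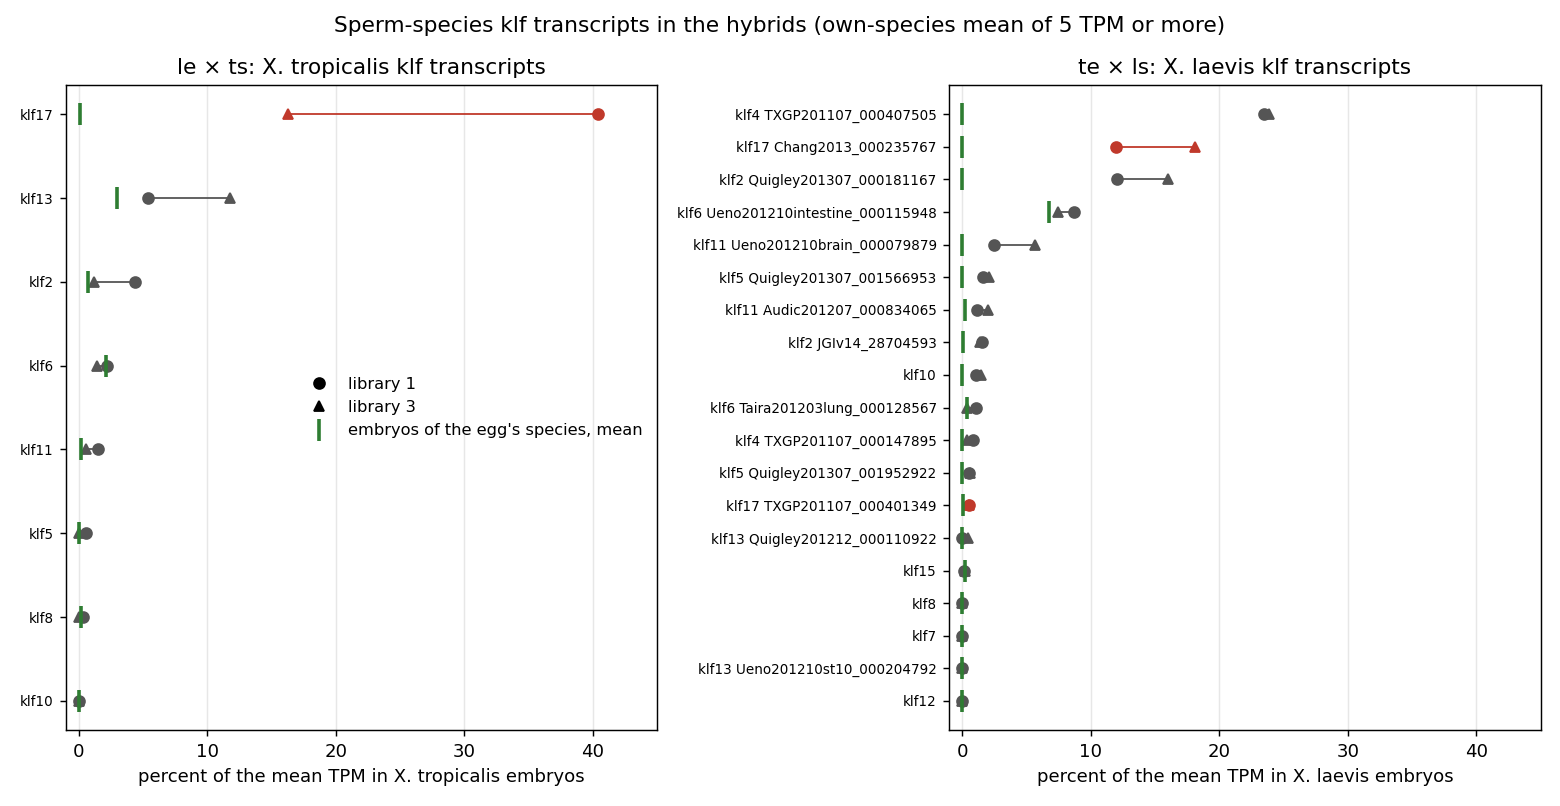
Sperm-species klf transcripts with an own-species mean of 5 TPM or more, as a percentage of that mean (horizontal axis, linear) in le × ts (left) and te × ls (right), with circles for hybrid library 1, triangles for library 3 and green ticks for the mean in embryos of the egg's species. *klf17* is in red and reaches 40.4% and 16.2% in le × ts, and *klf4* TXGP201107_000407505 leads in te × ls at 23.7%.

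Among paternal copies at 5 TPM or more in their own species, the others stood at 8.57% of it or less in le × ts (*klf13*) and 8.07% or less in te × ls (*klf6*), and some of them overlapped the background in embryos of the egg's species. *X. tropicalis* *klf2* was at 14.8 and 3.92 TPM in le × ts, but also at 4.19 and 0.386 TPM in *X. laevis*, against 344 and 338 TPM in *X. tropicalis* and 324 and 319 TPM in te × ls. Its difference in le × ts was 1.72, with overlapping groups. *X. tropicalis* *klf6*, of a tumour suppressor of mammals, was at 2.47 and 1.57 TPM in le × ts and at 2.13 and 2.56 TPM in *X. laevis*, so that all of its le × ts signal lay at the background level. It was at 114 and 101 TPM in te × ls and at 118 and 106 TPM in *X. tropicalis*. *X. laevis* *klf6* Ueno201210intestine_000115948 was near its background in te × ls, with 4.59 and 3.96 TPM there and 3.86 and 3.30 TPM in *X. tropicalis*. Its groups did not overlap, so it is among the transcripts counted above as higher in te × ls, with a difference of 0.21. It was at 50.6 and 55.4 TPM in *X. laevis* and at 51.5 and 76.9 TPM in le × ts.

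*X. tropicalis* *klf11*, of a repressor that responds to TGF-β in mammals, was at 0.999 and 0.399 TPM in le × ts and at 0 and 0.237 TPM in *X. laevis*. Its level was 68.2 and 69.3 TPM in te × ls and 67.2 and 69.1 TPM in *X. tropicalis*. *X. tropicalis* *klf13* was at 0.45 and 0.987 TPM in le × ts, 0.109 and 0.387 TPM in *X. laevis*, 6.04 and 5.96 TPM in te × ls, and 5.37 and 11.4 TPM in *X. tropicalis*. Both were higher in le × ts than in *X. laevis* without overlap, at levels under 1 TPM. *X. tropicalis* *klf8* was at 0.753 and 0 TPM in le × ts and at 0.484 and 0.213 TPM in *X. laevis*, although it was at 239.7 and 243 TPM in te × ls and at 218 and 243 TPM in *X. tropicalis*. *X. tropicalis* *klf5* was at 0.127 and 0 TPM in le × ts and 0 in *X. laevis*, with 13.1 and 24.8 TPM in te × ls and 16.4 and 27.2 TPM in *X. tropicalis*. *X. tropicalis* *klf10*, of a second TGF-β-responsive repressor, was listed at 0 in all 4 libraries from *X. laevis* eggs, at 8.64 and 10.6 TPM in te × ls, and at 10.9 and 11.4 TPM in *X. tropicalis*. *X. tropicalis* *klf15*, a regulator of glucose and amino acid metabolism in mammals, was also listed at 0 in those 4 libraries, and was at 6.25 and 2.43 TPM in te × ls and 3.28 and 1.39 TPM in *X. tropicalis*. *X. tropicalis* *klf8* was thus at background in le × ts, whereas *klf17*, whose libraries overlapped those of *klf8* in *X. tropicalis* embryos, was not.

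Egg-species Krüppel-like factors other than *klf17* and the *klf4* transcript above had differences within ±1 between hybrids and controls, and none was called. In le × ts against *X. laevis*, 27 of the 29 *X. laevis* klf transcripts were tested and limma called 0, as it did over all 17526 transcripts (0%). Over all of these the lowest adjusted p was 0.281 in limma, and 209 (1.19%) had an unadjusted p under 0.05. The paper's edgeR test on reads did find significant genes in this contrast, nearly all of them *X. tropicalis* genes higher in le × ts. The absence of calls here is thus of limma on TPM with 2 libraries per group. Without overlap of the groups, 5 of the 27 were higher in le × ts, against 10.9% of the tested *X. laevis* transcripts, and 2 were lower, against 7.85%. Of the tested *X. tropicalis* transcripts, 49.8% were higher without overlap. The 2 lower ones were the Chang *klf17* transcript and *klf4* TXGP201107_000407505, whose difference was -1.34 (SE 0.5, unadjusted p = 0.0434, adjusted p = 1 in limma). With equal library numbers as a block, which was not used for the report, this *klf4* transcript was called. The median difference of the 27 was 0.10, beside 0.01 over the 17044 tested *X. laevis* transcripts.

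Of the 5 higher in le × ts, *klf5* Quigley201307_001952922 was at 136 and 114 TPM in *X. laevis* and at 147 and 211 TPM in le × ts, a difference of 0.50 (SE 0.284). The other *klf5* transcript, Quigley201307_001566953, was at 50.1 and 66.7 TPM in *X. laevis* and at 55.5 and 122 TPM in le × ts, with overlap. In te × ls these transcripts of *klf5* were at 0.665 and 0.721 TPM and at 0.953 and 1.22 TPM, and both were listed at 0 in *X. tropicalis*. *klf11* Audic201207_000834065 was at 12.5 and 10.7 TPM in *X. laevis* and at 13.3 and 14.6 TPM in le × ts. *klf6* Taira201203lung_000128567 was at 29.4 and 35.6 TPM in *X. laevis* and at 36.5 and 39.9 TPM in le × ts. The others were *klf4* TXGP201107_000147895 (difference 0.10) and a *klf7* transcript (0.98) that stayed at or under 2.99 TPM. The groups did not overlap in any of the 5, and none of these differences was called in the test.

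The further *X. laevis* transcripts overlapped between the groups. *klf8* was at 203 and 204 TPM in *X. laevis* and at 182 and 261 TPM in le × ts. *klf15* Blower201306_000409337 was at 141 and 142 TPM in *X. laevis* and at 141 and 169 TPM in le × ts, and *klf15* XBv5_148222992 at 6.41 and 1.49 TPM and at 8.10 and 1.37 TPM. *klf13*, which binds the corepressor Sin3 in mammals, had a transcript at 18.2 and 19.9 TPM in *X. laevis* and at 15.7 and 25.4 TPM in le × ts, and another at 20.2 and 23.5 TPM and at 15.6 and 27.3 TPM. These members thus had near-equal means in the groups, with more spread in le × ts. *klf10* Quigley201307_001751031 was at 14.6 and 21.8 TPM in *X. laevis* and at 17.5 and 25.9 TPM in le × ts, and *klf11* Ueno201210brain_000079879 at 10.3 and 10.6 TPM and at 10.3 and 15.1 TPM. *klf12*, of a repressor of AP-2α in mammals, had a transcript at 17.7 and 5.88 TPM in *X. laevis* and at 14.8 and 9.02 TPM in le × ts, and another at 6.43 and 3.13 TPM and at 6.73 and 4.54 TPM. *klf7*, which acts in neurons of the mouse, had its main transcript at 11.9 and 8.63 TPM in *X. laevis* and at 10.6 and 8.53 TPM in le × ts. Like *klf17*, both *klf12* transcripts were higher in library 1 of these groups. In te × ls and *X. tropicalis* all of the *X. laevis* transcripts of this paragraph were at or under 0.591 TPM.

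In te × ls against *X. tropicalis*, 12 of the 14 *X. tropicalis* klf transcripts were tested and limma called 0. Without overlap of the groups, 4 of the 12 (*klf17*, *klf2*, *klf10* and *klf12*) were lower in te × ls, against 10.3% of the tested *X. tropicalis* transcripts, and 0 were higher, against 7.19%. The differences of *klf2* (-0.08, SE 0.0767), *klf10* (-0.20, SE 0.209) and *klf12* (-0.21, SE 0.228) were small beside the -1.02 of *klf17*. The median of the 12 was -0.10, beside -0.01 over the 11559 tested *X. tropicalis* transcripts.

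**Figure D4:**
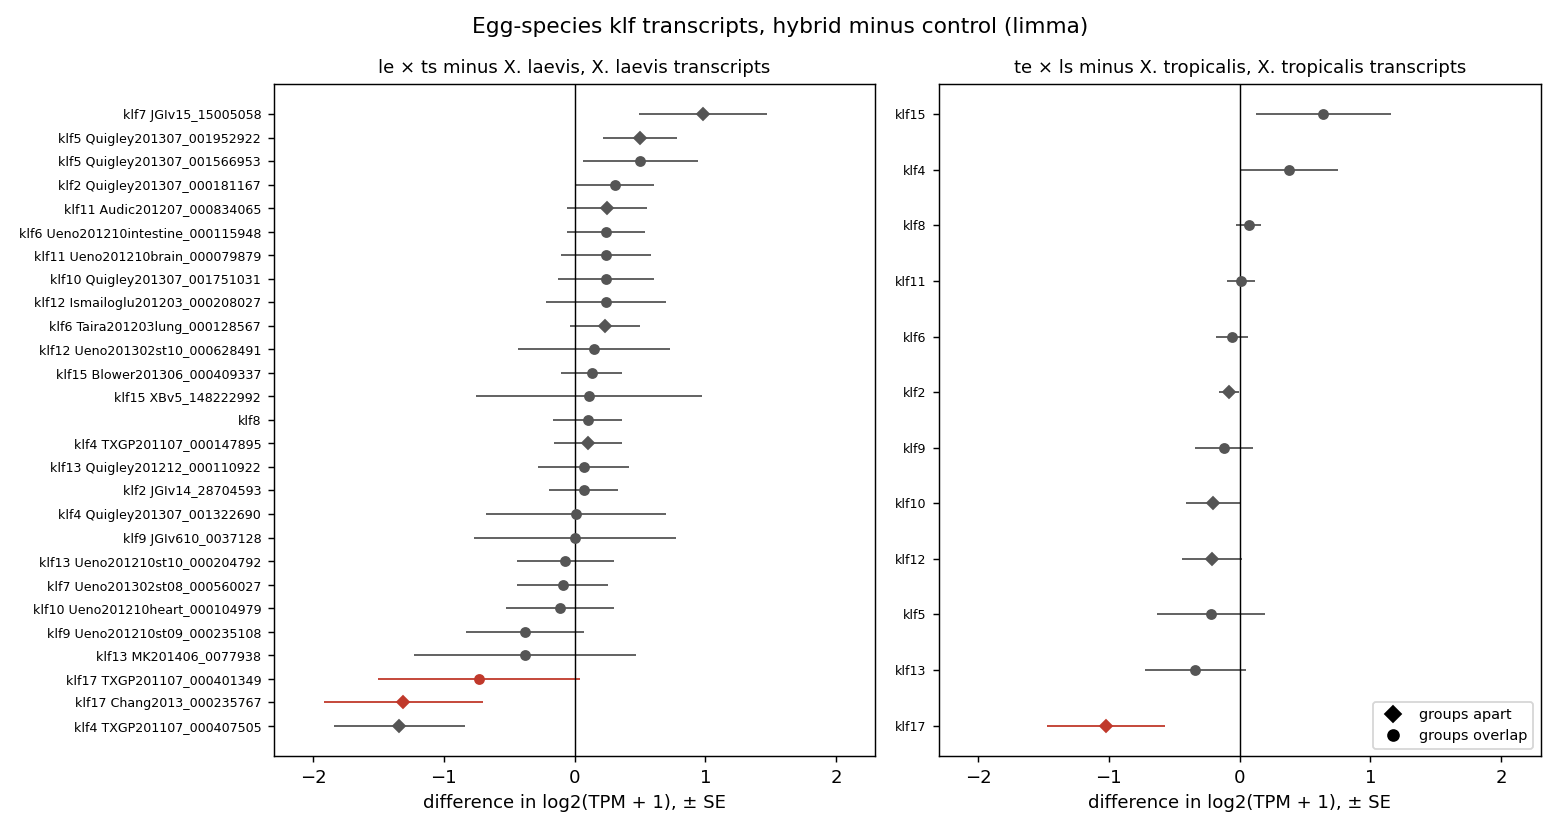
Difference in log2(TPM + 1), hybrid minus control, with its SE from limma (horizontal axis) for each tested klf transcript of the egg's species (vertical axis), in le × ts (left) and te × ls (right). *klf17* is in red, diamonds mark groups without overlap, and the lowest values are *klf4* TXGP201107_000407505 at -1.34 and *X. tropicalis* *klf17* at -1.02.

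The remaining 13 klf transcripts, 8 from *X. laevis* and 5 from *X. tropicalis*, stayed under 5 TPM in every library. They include *klf9*, a thyroid hormone response gene of *Xenopus* tadpoles, *klf3*, of a repressor that binds CtBP, and the *X. tropicalis* transcript of *klf4*. *X. tropicalis* *klf4* was at 3.71 and 4.29 TPM in te × ls and at 4.20 and 1.84 TPM in *X. tropicalis*. The *X. laevis* copies therefore made up 65.1% and 61.2% of the *klf4* sum in te × ls, the counterpart of the 71.0% and 77.4% that the *X. tropicalis* copy made up of *klf17* in le × ts. Apart from *klf9*, at under 5 TPM in sum, no other symbol had a paternal share above 11.0% in a hybrid library.

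The transcripts nearest to each *klf17* transcript were found by the root mean square difference in log2(TPM + 1) over the 8 libraries. All transcripts were read from these same libraries, which differ in depth, so the order is a description. Nearest to *X. tropicalis* *klf17* among 9535 transcripts was *not*, a homeobox factor of the notochord, with a difference of 0.323. It was at 0.146 and 0.128 TPM in *X. laevis*, 83.5 and 44.3 TPM in le × ts, 41.7 and 113 TPM in te × ls, and 135 and 318 TPM in *X. tropicalis*. Then came *id3*, a BMP target that inhibits bHLH factors (0.460), *znf665* (0.770), *cxcr4*, a chemokine receptor (0.806), and *oct25*, a POU factor of pluripotent cells (0.944). These 5 were at or under 0.146 TPM in *X. laevis* and at 11.0 TPM or more in every other library. Nearest to the Chang transcript were *X. laevis* *sgk1* (0.264), *foxi1* (0.351), *has-rs* (0.371), *dll1* (0.378) and *sfrp2* (0.389), all found in te × ls at 0.625 to 2.87 TPM. Nearest to the TXGP transcript were *utp3* (0.184), *uqcrb* (0.203), *smndc1* (0.213), *krt19* (0.223) and *nell1* (0.227), which were at or under 0.302 TPM in te × ls. The nearest 5 of the *X. laevis* *klf17* transcripts had no gene in common.

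**Figure D5:**
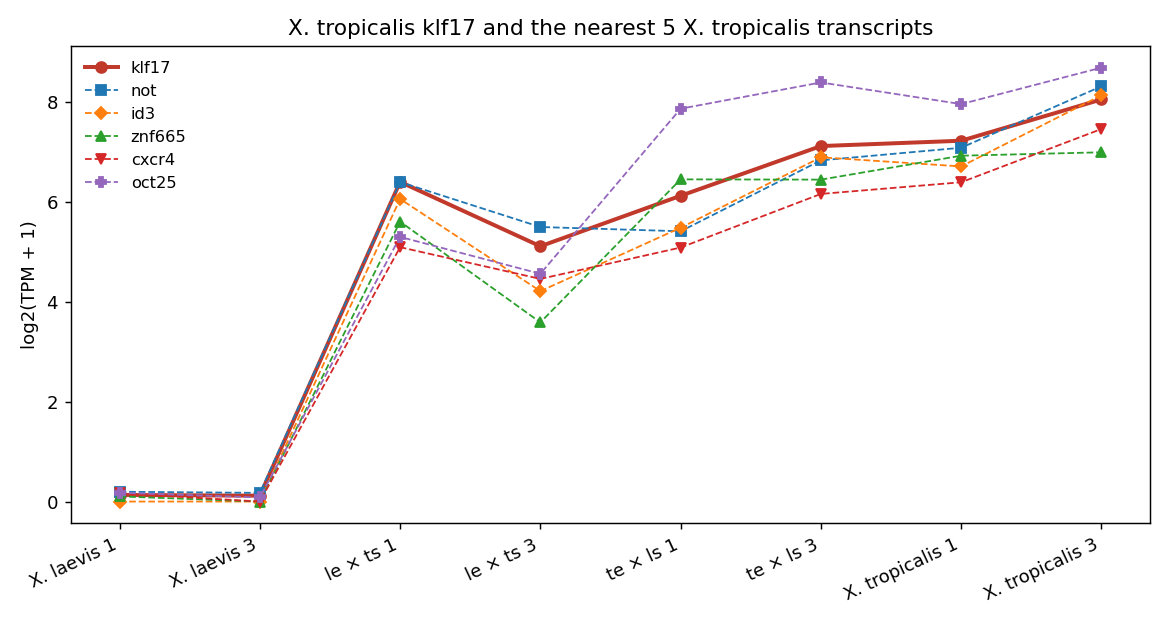
log2(TPM + 1) (vertical axis) of *X. tropicalis* *klf17* (red) and its 5 nearest *X. tropicalis* transcripts in the 8 libraries (horizontal axis), with lines joining the values of a transcript for the eye. All 6 are near 0 in *X. laevis*, and *not* lies closest to *klf17*, with a root mean square difference of 0.323.

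Genes that work with Krüppel-like factors were read from the same fits, as lists of related factors, cofactors, ventral genes and pluripotency genes, and limma called 0 of each. Each count of egg-species transcripts without overlap is read against the shares over all tested egg-species transcripts, 10.9% higher and 7.85% lower in le × ts, and 7.19% higher and 10.3% lower in te × ls. An unadjusted p under 0.05 is read against 1.19% of all tested transcripts in le × ts and 4.68% in te × ls. Sp factors share the zinc fingers of the family. Of 9 tested *X. laevis* Sp transcripts, 3 were higher and 2 lower in le × ts without overlap (median 0.24, beside 0.01), and 0 had an unadjusted p under 0.05. Of 7 *X. tropicalis* Sp transcripts, 1 was higher and 4 were lower in te × ls (median -0.17, beside -0.01), and 2 had an unadjusted p under 0.05. The Sp factors that were lower included *sp5*, a Wnt target, at 2.43 and 2.07 TPM in te × ls and at 4.65 and 4.92 TPM in *X. tropicalis* (difference -0.83, SE 0.221, adjusted p = 0.475 in limma). *sp9* had a difference of -1.21 and *sp8* of -0.79, both at or under 6.36 TPM in every library. Cofactors included CtBP, Sin3, histone deacetylases and p300. Of their 23 tested *X. laevis* transcripts, 8 were higher and 1 lower in le × ts without overlap (median 0.05, beside 0.01), the largest differences being those of *ep300* at 0.59 and 0.58. Of 11 *X. tropicalis* transcripts, 0 were higher and 2 lower in te × ls (median -0.03, beside -0.01), and in neither cross had a cofactor an unadjusted p under 0.05.

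Ventral and BMP genes, the class to which *klf17* belongs in *Xenopus*, had lower egg-species medians in both hybrids. This was not particular to ventral genes. The summed early zygotic genes above were at 289 and 223 TPM in le × ts against 537 and 478 TPM in *X. laevis*. In te × ls they were at 582 and 819 TPM, against 861 and 1360 TPM in *X. tropicalis*. Hybrids carry fewer chromosome sets of the egg's species than their controls, and the part of this in the lower values was not tested. The ventral list also holds several transcripts of *ventx2*. Of 28 tested *X. laevis* transcripts, 3 were higher and 4 lower in le × ts without overlap (median -0.41, beside 0.01), against 10.9% and 7.85%, and 2 of the 28 had an unadjusted p under 0.05. Of 17 tested *X. tropicalis* transcripts, 1 was higher and 6 lower in te × ls (median -1.06, beside -0.01), against 7.19% and 10.3%, and 4 of the 17 had an unadjusted p under 0.05. *ventx3*, a homeobox repressor of dorsal genes, was at 22.1 and 11.8 TPM in *X. laevis* and at 5.94 and 1.64 TPM in le × ts (difference -2.01, SE 0.605, adjusted p = 1 in limma). *X. tropicalis* *ventx2* Tan201204_XENTRc2st11_000020250 was at 23.1 and 36.2 TPM in *X. tropicalis* and at 8.86 and 7.36 TPM in te × ls (difference -1.72, SE 0.286, adjusted p = 0.16 in limma).

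Pluripotency partners were read in the same way, with the same limit from the number of chromosome sets. Of their 22 tested *X. laevis* transcripts, 3 were higher and 7 lower in le × ts without overlap (median -0.11, beside 0.01), against 10.9% and 7.85%, and 1 had an unadjusted p under 0.05. Of 11 tested *X. tropicalis* transcripts, 0 were higher and 1 lower in te × ls (median -0.08, beside -0.01), against 7.19% and 10.3%, and this one had an unadjusted p under 0.05. The lower one was *sox2*, a factor of pluripotent and neural cells, at 28.4 and 46.7 TPM in *X. tropicalis* and at 9.86 and 20.6 TPM in te × ls (difference -1.29, SE 0.443, adjusted p = 0.905 in limma). *X. laevis* *pou5f3* Ueno201302st10_000568162, of an Oct4-class factor, was at 68.0 and 57.4 TPM in *X. laevis* and at 39.2 and 20.6 TPM in le × ts (difference -1.11, SE 0.381, adjusted p = 1 in limma). The other tested *X. laevis* *pou5f3* transcripts had differences from -0.73 to 0.22 in le × ts. The most abundant of them was at 751 and 730 TPM in *X. laevis* and at 722 and 562 TPM in le × ts (difference -0.22).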

How the data were processed

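The authors aligned paired-end reads by Bowtie against transcripts of both species pooled in 1 database, allowing no mismatch and unique hits only, and deposited TPM from RSEM for each transcript and library. The submitters' processing notes name BWA 0.7.10 instead. Groups and library numbers were taken from the sample labels, which give 2 libraries per group. Transcripts that reached 1 TPM in 2 or more libraries of a comparison were tested in R 4.3.3 with limma 3.58.1 (lmFit, eBayes with trend) on log2(TPM + 1), without a block, and p-values were adjusted over all tested transcripts. The authors used edgeR on reads, which TPM does not allow. The script was tested on simulated data. The members and lists were chosen with earlier results of these data known. Named were all *klf17* transcripts, klf transcripts reaching 5 TPM, the 5 nearest transcripts to each *klf17* transcript, and up to 3 of each list with the largest differences. The text gives those of the egg's species. Alternatives were other pseudocounts, filters and scalings, a fit of all groups, a replicate block, adjustment within species, sums per symbol and leaving out each library. Depth per library is unknown and no counting intervals are given. No genome or sequence was used here.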

Additional observations from a re-analysis of the deposited data

How the results depend on the processing

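The count of called klf transcripts was 0 in both comparisons, and it changed with some settings. In le × ts against *X. laevis* it was 3 with the replicate block and 1 with adjustment within each species. In te × ls against *X. tropicalis* it was 2 with a pseudocount of 0.1, 0.5, with all 4 groups in 1 fit or with sums per symbol, 3 with adjustment within each species and 4 with the replicate block. It ranged from 0 to 1 when a library was left out, and was 1 without *X. tropicalis* library 3. In le × ts the counts include *X. tropicalis* *klf17*, whose difference is a description with no test. In te × ls the calls other than *X. tropicalis* *klf17* were of *X. laevis* *klf4* and *klf2*, which passed the filter only through the hybrid, so these counts support nothing. With the block, *X. tropicalis* *klf17* in te × ls kept its difference of -1.018 with an adjusted p of 0.00133, against 0.381 to 1 under its other alternatives. The cause of these changes was not tested. The labels do not say that equal numbers mark a shared clutch or day. Deviations of equal-numbered libraries correlated at 0.764 and 0.842 across transcripts, so part of the spread that the unblocked test counts as error was shared. With unlabelled pairs and 2 pairs only, the block was not used for the report. Besides *X. tropicalis* *klf17*, the block added calls of *X. tropicalis* *klf2* and *X. laevis* *klf4* in le × ts, and of *X. laevis* *klf4* and both *klf2* transcripts in te × ls, and changed no other klf call. The difference of each egg-species *klf17* transcript had the same sign in both equal-numbered pairs, and the adjusted p of the Chang transcript was 0.0574 with the block. The difference of the TXGP *klf17* transcript in le × ts ranged from -1.582 to 0.123 when a library was left out, and was above 0 without le × ts library 3 or *X. laevis* library 1 (0.038). For *X. tropicalis* *klf17* in le × ts, pseudocounts of 0.1 and 0.5 gave 8.125 and 6.505. In te × ls they gave 3.546 and 1.654 for the Chang transcript and 1.044 and 0.322 for the TXGP transcript, whose sum per symbol had a difference of 1.121. As a percentage of *X. laevis*, the summed *klf17* transcripts stood at 3.168% in te × ls. Leaving out a library gave differences of 0.900 to 1.210 for the Chang transcript in te × ls, and percentages of 10.55% to 26.34% for it and of 0.335% to 1.011% for the TXGP transcript. Of 452 values of other klf transcripts under the alternatives, 18 passed the threshold, 7 moved and 31 had the other sign. A 5 TPM filter left no value for the Chang transcript. The read totals are unknown, and levels near 0.1 TPM rest on few reads.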
